A study of Drosophila melanogaster with 2 samples.

Results

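The 5 genes of Drosophila melanogaster examined here for Snail-eGFP binding encode corepressors that work with Snail and other repressors: CtBP, gro (groucho), ebi, HDAC1 (older symbol Rpd3) and Sin3A. They are 5 of 13945 protein-coding genes on the 6 main chromosome arms. A peak or candidate region was counted to a gene if its summit lay within the gene's span extended by 5000 bp on each side. This gave 6 of the 4222 peaks of the pooled thresholded list and 123 of the 106694 pooled candidates. The study was a chromatin immunoprecipitation with sequencing of a single group, transgenic sna-eGFP embryos of strain sna-GFP collected from 0 to 24 h of development and processed as whole organisms, with 2 biological replicates. The sample descriptions name an antibody against GFP, whereas the labels list sna as the antibody, and chromatin was sonicated to 200 to 800 bp. Without a control here, Snail-eGFP binding and background signal cannot be told apart, and signal from all stages and cell types of the embryo was averaged.

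Snail is a zinc-finger repressor that does not silence genes alone but brings corepressors to its target sites. CtBP is the short-range corepressor bound by Snail, Kruppel and Knirps, while Groucho is a WD-repeat protein that Hairy, Dorsal and the Enhancer of split proteins recruit for long-range repression. Ebi, the fly homologue of human TBL1, acts with the corepressor SMRTER and with HDAC3. HDAC1 removes acetyl groups from histones, and Sin3A is the scaffold that holds it in the Sin3 complex. All these proteins serve many repressors. The peaks described here are positions of precipitated DNA relative to their genes and do not measure the proteins.

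The sequences around the summits are shown so that promoter motifs can be compared between the peak at gro, which lay at the start of a corepressor gene, and those counted to CtBP and ebi, which lay at the starts of neighbours. Each is the longest stretch without annotated untranslated sequence within 100 bp of the summit, 5′ to 3′ on the plus strand of dm6, read from the NCBI Release 6 genome. The stretch shown for gro lies beside its summit and the others hold theirs. Because untranslated sequence was left out, the gro, CG8031 and RpLP1 stretches lie inside their genes, downstream of the start sites. The printed stretches therefore cannot be used to compare promoter motifs. The motif counts further below were made in the full windows around the summits. Capitals mark CGATA, the core of the site of the promoter factor DREF, on either strand, or the longer TATCGATA that contains it.
ebi window, peak at the start of CG11885 (2L:421451-421562): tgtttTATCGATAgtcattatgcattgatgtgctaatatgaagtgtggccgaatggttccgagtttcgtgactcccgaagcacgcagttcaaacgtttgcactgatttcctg
ebi window, peak at the start of RpLP1 (2L:420075-420232): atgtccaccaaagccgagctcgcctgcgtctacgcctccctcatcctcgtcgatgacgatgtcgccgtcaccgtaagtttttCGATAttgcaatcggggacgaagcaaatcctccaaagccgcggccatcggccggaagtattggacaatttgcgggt
CtBP window, peak at the start of CG46280 (3R:13030670-13030870): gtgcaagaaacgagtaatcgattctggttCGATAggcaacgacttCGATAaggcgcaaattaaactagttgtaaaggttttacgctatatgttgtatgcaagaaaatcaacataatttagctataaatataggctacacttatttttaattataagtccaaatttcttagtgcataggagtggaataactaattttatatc
CtBP window, peak at the start of CG8031 (3R:13011087-13011180): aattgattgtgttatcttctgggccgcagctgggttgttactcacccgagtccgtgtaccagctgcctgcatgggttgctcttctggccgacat
gro peak (3R:26041902-26041982): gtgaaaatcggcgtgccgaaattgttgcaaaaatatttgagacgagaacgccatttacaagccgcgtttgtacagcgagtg

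In the 201 bases centred on each summit, read on either strand, CGATA was found at 4 of the 6 peaks, beside 55.1% of all pooled thresholded peaks. The gro peak and the peak at CG8031 were those without it in this window. Within 250 bp of the summit 5 of the 6 peaks held CGATA, beside 74.0% of all peaks. The gro peak then had 3 matches, at 131, 138 and 160 bp from its summit. They lay on the side of its first start site, which was 146 bp away. TATCGATA was found at 1 of the 6, the CG11885 peak, where its centre lay 3 bp from the summit, and at 17.7% of all peaks. The Snail-type E-box CAGGTG was found at 1 of the 6, the CG8031 peak, 61 bp from the summit and outside the stretch printed above, and at 6.44% of all peaks. The related CAGGTA was found at 0 of the 6 and at 4.60% of all peaks. Within 250 bp of the summit CAGGTA lay at the gro peak alone, beside 11.5% of all peaks. The general E-box CANNTG, which takes in CAGGTG but not CAGGTA, was found at 2 of the 6, the CG8031 and gro peaks, and at 62.6% of all peaks. GAGAG, the letters read by GAGA factor, was found at 2 of the 6 (29.2% of all peaks), and GGTCACACT, the motif of the core promoter factor M1BP, at 0 of the 6 (3.96%). The 0 depended on the window. Within 250 bp of the summit GGTCACACT lay at the CG8031, CG46280 and RpLP1 peaks, beside 7.72% of all peaks. It was not found there at the gro, CG11885 and Src64B peaks. These matches are letters in a window and say nothing of which factor lay there.

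In the pooled thresholded list, 4 of the 5 corepressor genes had a peak within 5000 bp of their span, where 52.7% of all coding genes did. CtBP and ebi had 2 peaks each, gro and HDAC1 had 1 each, and Sin3A had 0. The peaks were mostly those of neighbouring genes: the strongest peak was nearest to a start site of the gene itself only for gro, 1 of the 5, beside 15.2% of all coding genes. Counting any peak nearest to an own start also gave 1 of the 5, beside 23.2%. Fly genes lie close together, and a pooled peak fell in the windows of a median of 3 coding genes, while those at the corepressors fell in the windows of 3 to 6. In the list made from the replicate pair 3 of the 5 genes had a peak (CtBP, ebi and HDAC1; 49.9% of coding genes), in the replicate 1 list 3 of the 5 (CtBP, gro and ebi; 45.0%), and in the replicate 2 list 2 of the 5 (ebi and HDAC1; 36.7%). With 5 genes, none of these counts is read as a difference from coding genes at large.

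**Figure D1:**
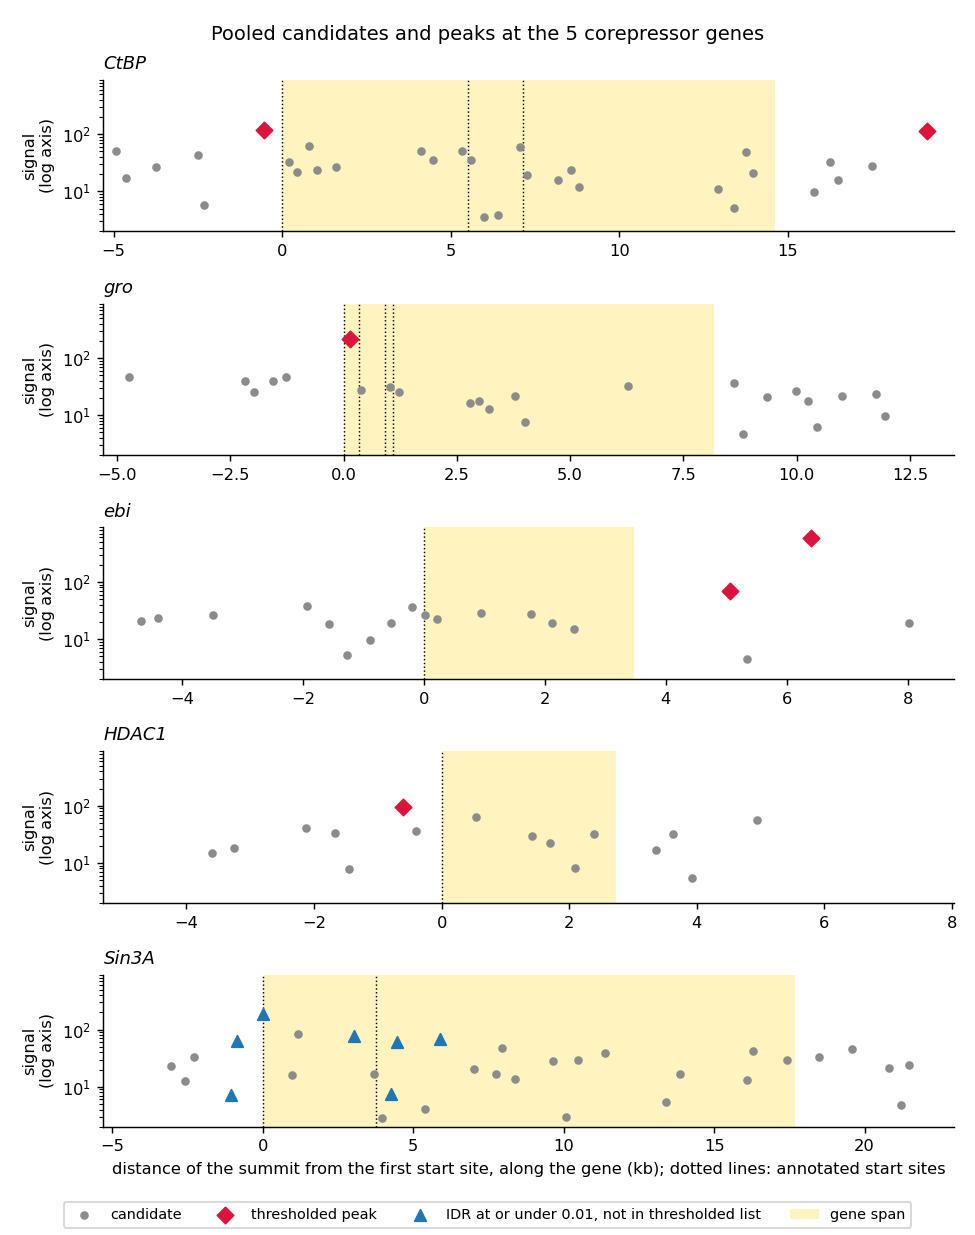
Signal of every pooled candidate (authors' signal value, log axis) against the distance of its summit from the first start site along each gene (kb), with thresholded peaks as red diamonds, candidates at an IDR of 0.01 or lower that the thresholded list does not hold as blue triangles, and the gene span shaded. The gro diamond sits at the first start site with a signal of 216, both ebi diamonds lie past the gene's end, and Sin3A has 7 triangles and 0 diamonds.

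The Groucho gene carried the peak that sat most clearly at a corepressor promoter. gro (FBgn0001139) spans 8176 bp on the plus strand of 3R, from 26041736 to 26049911, with 10 transcripts and 4 start sites. Its peak (3R:26041624-26042139) had its summit 146 bp downstream of the first start site, in the 5′ untranslated region. Its pooled signal was 216, rank 734 and the 82.6th percentile of the list, against a list median of 109. In replicate 1 the overlapping candidate had a signal of 125, rank 735 of 2876 thresholded peaks. In replicate 2 it had 52.7, which was not in that replicate's thresholded list, with a −log10 IDR of 1.57 where the limit is 2. The peak was also absent from the replicate-pair list. The IDR, or irreproducible discovery rate, is low for a region whose rank is both high and similar in repeated peak calls. The later start sites of gro, 905 and 1084 bp downstream, had a strongest pooled candidate of 31.5 within 500 bp.

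Upstream of gro lies the end of the Enhancer of split complex, whose bHLH proteins repress with Groucho. E(spl)m8-HLH starts 1496 bp from gro. The strongest candidates at the starts of E(spl)m8-HLH and E(spl)m7-HLH in the gro window had pooled signals of 46.6 and 47.2, and neither was a thresholded peak. Of 3208 peaks compared, each nearest to an own start, the one most like that of gro was at CG11927. Likeness was taken from percentiles in the pooled thresholded list and in the replicate 1 and replicate 2 candidate lists. CG11927 had 214 pooled, 129 in replicate 1 and 67.4 in replicate 2. The Euclidean distance of CG11927 from gro was 0.750 percentile points. In replicate 2, percentiles of 98.0 (gro) and 98.7 (CG11927) stood for signals of 52.7 and 67.4.

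CtBP had 2 peaks, upstream and downstream of the gene, both at neighbours' start sites. CtBP (FBgn0020496) spans 14627 bp on the plus strand of 3R, from 13011649 to 13026275, with 10 transcripts and 3 start sites, and its first start faces that of CG8031 at a distance of 339 bp. The upstream peak (3R:13010845-13011360) had its summit in an intron of CG8031, 207 bp inside that gene and 546 bp upstream of CtBP. Its pooled signal was 118, the 55.9th percentile. The replicate 1 candidate there had a signal of 77.0 and was in that replicate's thresholded list, while the replicate 2 candidate had 45.4 and was not. The downstream peak (3R:13030512-13031027) lay between genes, 111 bp upstream of CG46280 and within 500 bp of starts of CG46281 and l(3)87Df, and 4495 bp past the end of CtBP. Its pooled signal of 114 was close to that of the upstream peak, but it was in the thresholded list of neither replicate, with candidates of 49.8 in replicate 1 and 59.0 in replicate 2. Both peaks were in the replicate-pair list.

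The start sites of CtBP itself held only candidates under the limit. The strongest pooled candidate within 500 bp was 33.1 at the first start, 50.5 at the second, 5512 bp downstream, and 60.6 at the third, 7141 bp downstream. Their −log10 IDR values were 1.67, 0.685 and 1.19 in the same order, so the candidate at the first start came nearest to the limit. In replicate 1 the same starts had 35.6, 23.2 and 28.9, and in replicate 2 they had 28.5, 31.3 and 27.4. The replicates did not share the order of the starts: replicate 1 was highest at the first and replicate 2 at the second.

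The strongest peak counted to any corepressor gene fell in the window of ebi, but more than the length of the gene away from its start. ebi (FBgn0263933) spans 3470 bp on the plus strand of 2L, from 415067 to 418536, with 1 transcript. The peak (2L:421297-421660) was 364 bp wide and lay 6395 bp downstream of the ebi start, 12 bp upstream of CG11885 and close to the start of CG13692. Its pooled signal was 584, rank 34 of 4221 and percentile 99.2. Both replicates held it in their own thresholded lists, with 316 at rank 40 in replicate 1 and 252 at rank 27 in replicate 2. It was the only peak of the 6 with that support. The other ebi peak (2L:419874-420389) had its summit in a coding exon of RpLP1, which encodes the acidic ribosomal protein P1, 180 bp from its start. Its pooled signal of 69.5 was at the 16.9th percentile and its −log10 IDR was 2.10. In the replicates it had 50.2 and 24.6 and was in neither thresholded list nor in the replicate-pair list.

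At the start of ebi itself, which lies 290 bp from the divergent start of AP-2alpha, a clathrin adaptor gene, the strongest candidates had a signal of 36.7 in the pool, 25.6 in replicate 1 and 22.0 in replicate 2. The pooled value was under the median of 38.0 over all coding genes, and the replicate values were above their medians of 21.7 and 19.7. The start of ebi was thus mid-ranked, in contrast with the peak at CG11885 downstream.

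HDAC1, the histone deacetylase gene, had a peak at the start of the gene it faces. HDAC1 (FBgn0015805) spans 2734 bp on the plus strand of 3L, from 4626734 to 4629467, with 1 transcript, and lies 538 bp from the divergent start of Src64B, which encodes a Src-family tyrosine kinase. The peak (3L:4625868-4626383) had its summit in the 5′ untranslated region of Src64B, 608 bp upstream of HDAC1. It lay 6 bp inside the nearest Src64B start site, which is not the one 538 bp from HDAC1. Its pooled signal was 95.2, the 40.5th percentile. The replicate 1 candidate had 50.8 and was not in that replicate's thresholded list, while that of replicate 2 had 48.7 and was. In replicate 2 the summit was 490 bp upstream of HDAC1. It was 48 bp upstream of the Src64B start that lies 538 bp from HDAC1, between the starts. Inside HDAC1, 543 bp from its start, an intronic candidate reached 63.5 in the pool with a −log10 IDR of 1.34.

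Across the 6 peaks, 1 was overlapped by at least 1 bp by a thresholded peak of both replicates, beside 44.4% of all pooled peaks. Another 2 were in the replicate 1 list alone (22.2% of all peaks), 1 in the replicate 2 list alone (7.32%) and 2 in neither (26.0%). All 6 overlapped some candidate in both replicates, but the candidate lists are long, with 46960 regions in replicate 1 and 103224 in replicate 2. Signals of the replicates were not set against each other as levels, because the labels and readme do not give their scales.

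Sin3A, the scaffold of the Sin3 complex, had 0 peaks in all 4 thresholded lists, but strong candidates. Sin3A (FBgn0022764) spans 17678 bp on the minus strand of 2R, from 12575240 to 12592917, with 10 transcripts and 2 start sites, and faces Amph, the amphiphysin gene, 687 bp away. Its strongest pooled candidate (2R:12592838-12593022) had its summit 7 bp upstream of the first start site. Its signal was 188, rank 957 among all pooled candidates. The replicate 1 candidate had 120 at 16 bp upstream and the replicate 2 candidate had 74.0 at 20 bp upstream. Sin3A was thus the corepressor gene with the highest own-start signal in replicate 2, where gro had 52.7. The internal start of Sin3A, 3765 bp downstream, had candidates of 16.4 in the pool, 13.7 in replicate 1 and 20.1 in replicate 2.

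The first-start candidate of Sin3A passed the limit that the authors' thresholded lists follow, yet was in none of them. Its −log10 IDR was 4.19 in the pool, above the 3.90 of the gro peak, and 3.55 in replicate 1 and 2.75 in replicate 2. In all, 7 pooled candidates at Sin3A, in 5 intervals once overlapping regions were merged, had an IDR of 0.01 or lower and were not in the list. They lay from 1071 bp upstream to 5876 bp downstream of the first start, and 5 of them had signals of 61.1 to 188 while 2 had 7.29 and 7.44. In replicate 1 there were 3 such candidates at Sin3A and in replicate 2 there was 1. The other 4 genes had 0 in any of these lists. Over the whole pooled list 144 of 4366 candidates past the limit, 3.30%, were not in the thresholded list, and 79 of 13945 coding genes, 0.567%, had such a candidate and no thresholded peak. These candidates fell into 64 runs split at gaps over 10000 bp, and of the 37 runs with 2 or more candidates 0 had a thresholded peak between their ends. Many of the runs were short, which left little room for a peak there, so no conclusion is drawn from the 0. At Sin3A the nearest thresholded summits lay 58117 bp to the left and 18657 bp to the right of the run. Per the deposited readme, the thresholded lists were made with 1 more input file than the ranked lists, and the readme does not say what that file holds. Its part in the absence of Sin3A was not tested. The 0 peaks at Sin3A are therefore not a measured absence of signal.

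**Figure D2:**
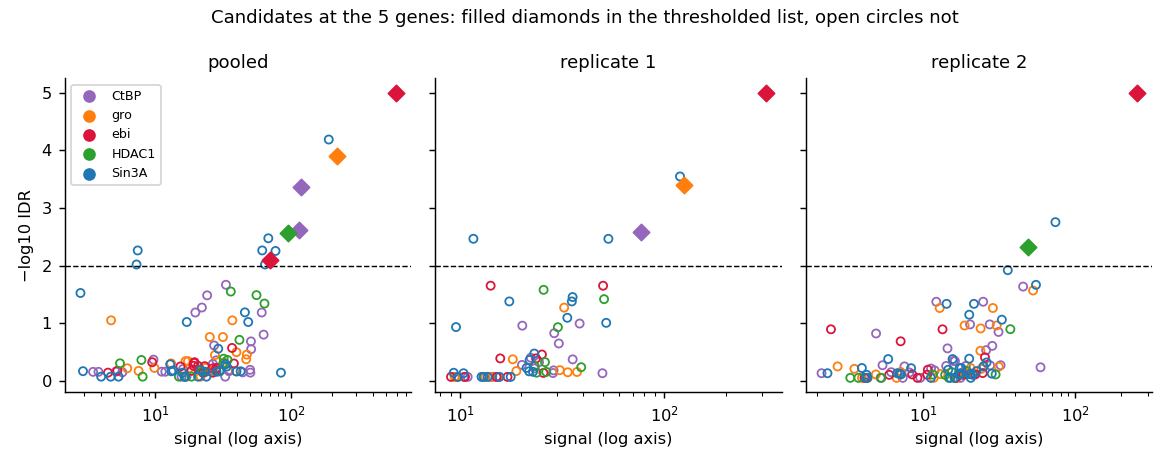
The −log10 IDR of every candidate at the 5 genes against its signal (log axis), in the pool, replicate 1 and replicate 2, with the limit of 2 as a dashed line, filled diamonds for peaks in the thresholded list and open circles for candidates that are not. Blue open circles above the line are the Sin3A candidates (7 in the pool, 3 in replicate 1 and 1 in replicate 2), and no other gene has an open circle there.

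The strongest candidate within 500 bp of any own start site gives a value for all 5 genes, whether or not a peak was thresholded. It is a maximum over 4 starts for gro, 3 for CtBP, 2 for Sin3A and 1 each for ebi and HDAC1. At its first start alone CtBP had 33.1 in the pool, under ebi and HDAC1. In the pool the order was gro (216), Sin3A (188), CtBP (60.6), ebi (36.7) and HDAC1 (35.9). Among 13945 coding genes these were at percentiles of 92.2, 90.4, 65.2, 48.9 and 48.2, where 24.2% of coding genes had no candidate at all. In replicate 1 the signals were 125, 120, 35.6, 25.6 and 25.7 in the same gene order, at percentiles of 92.3, 91.6, 65.3, 55.0 and 55.1. In replicate 2 they were 52.7, 74.0, 31.3, 22.0 and 48.7, at percentiles of 82.7, 89.2, 67.0, 54.2 and 80.6. In each list gro and Sin3A were the upper pair, but their order changed in replicate 2. The change of HDAC1 between lists came with the 500 bp limit. The stronger candidate at Src64B had its summit 608 bp upstream of HDAC1 in the pool (95.2) and 695 bp upstream in replicate 1 (50.8), outside the limit, and 490 bp upstream in replicate 2 (48.7), inside it. The values of 35.9 and 25.7 are those of flanking candidates 404 and 494 bp upstream. All of these HDAC1 candidates, and the pooled one of ebi, were nearer to the start of the facing gene, Src64B or AP-2alpha. With 2 replicates no finer order among the genes can be read.

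**Figure D3:**
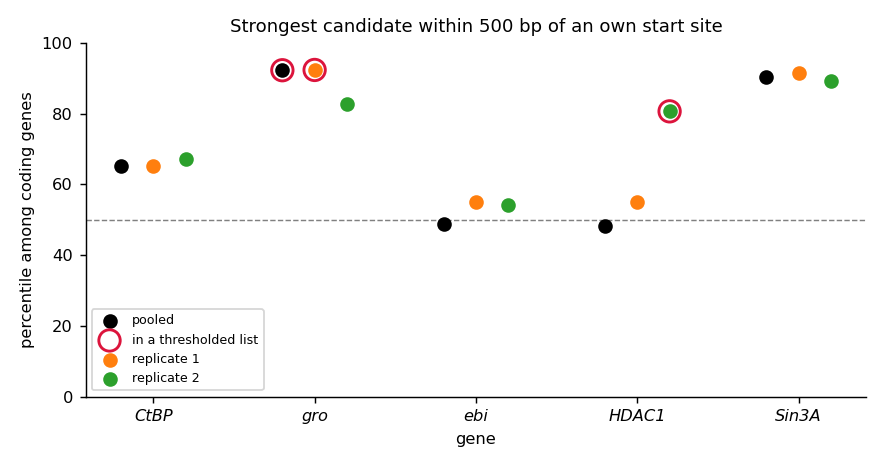
Percentile among 13945 coding genes of the strongest candidate within 500 bp of an own start site, for each corepressor gene in the pooled (black), replicate 1 (orange) and replicate 2 (green) candidate lists, with red rings for candidates in the thresholded list and a dashed line at 50. The gro and Sin3A points lie between 82.7 and 92.3 in all 3 lists, ebi between 48.9 and 55.0, and no Sin3A point has a ring.

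Candidate density around the corepressor genes was above the coding median in the pool and in both replicates. The pooled list had 31 in the CtBP window, 24 at gro, 19 at ebi, 16 at HDAC1 and 33 at Sin3A, which merged into 14, 12, 8, 7 and 17 separate intervals. Per kb of window this was 1.26, 1.32, 1.41, 1.26 and 1.19, against a median of 1.01 over coding genes, and all 5 values lay between percentiles 69.9 and 88.3. Their signals ran from 2.82 to 584. The median signal per window was 22.4 to 30.8, where that of all pooled candidates was 19.5. Replicate 1 had 8 to 22 candidates per window, with densities between percentiles 67.3 (HDAC1) and 86.9 (ebi), and replicate 2 had 13 to 35, between percentiles 56.7 (HDAC1) and 86.0 (gro). Most candidates were far under the limit, and 6 of the 123 were thresholded peaks. The count of peaks depended on the extension: it was 1 with no extension, 4 at 2000 bp, 6 at 5000 bp and 8 at 10000 bp. The farthest summit inside the 5000 bp edge was 4495 bp past CtBP (signal 114), and the nearest outside was 5481 bp past gro, at Cmpk (95.96).

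Genes of the partner complexes were counted in the same way. Of 54 genes in 5 lists, each counted once, 39 had a thresholded peak (72.2%, beside 52.7% of all coding genes), and 27 of the 54 had a peak nearest to an own start, beside 23.2%. The strongest peak was in both replicates' lists for 23 of the 39 genes, where 44.4% of all pooled peaks were, though a gene's strongest peak is not a typical peak. In addition 47 of the 54 had an own-start signal above the coding median of 38.0. That signal is a maximum over the start sites of a gene, so more starts give more room for a high value. The number of starts was not matched between partner and coding genes, and the 47 is not read as enrichment. Gene length differs between these sets, and a longer span has more room for a summit. Coding genes had a median span of 2166 bp and the 5 corepressor genes 8176 bp. The medians of the partner lists ran from 2362 to 19402 bp.

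The Sin3 complex genes, whose products join Sin3A and HDAC1, had a peak at 10 of 11 (90.9%, beside 52.7% of coding genes) and a peak nearest to their own start at 5 (45.5%, beside 23.2%), with a median span of 2362 bp. The strongest were CG15356, listed as EMSY, with 442, Bin1, the fly SAP18, with 397, and CG14220, listed as Sds3, with 276 for a peak nearest to the ribosomal protein gene RpS10b and 233 for its own. The gene without a thresholded peak was Kdm5, the histone demethylase also called lid, whose own-start candidate had 38.8. Its window also held a candidate of 191 that passed the IDR limit and was not in the list, as at Sin3A. The NuRD and CoREST genes had a peak at 6 of 7 (85.7%, beside 52.7%), and the same number had a peak nearest to their own start (beside 23.2%), with a median span of 10084 bp. MTA1-like led with 325 at its own start, followed by MBD-like and simj, whose strongest peaks (278 and 237) were nearest to CG9393 and CG8003 and whose own were 94.0 and 206. Su(var)3-3, the LSD1 demethylase gene, had 0 peaks and an own-start candidate of 41.5.

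The list of Smr (SMRTER), HDAC3 and other deacetylases had a peak at 9 of 10 (90.0%, beside 52.7% of coding genes), and 4 had a peak nearest to their own start (beside 23.2%). For Smr that peak lay 6815 bp from the start. Its strongest were Sirt7 with 329 and Sirt4 with 292, each at its own start, and HDAC6 with 319. The HDAC6 peak was nearest to CG9114 but also lay within 500 bp of an HDAC6 start. The window of Sirt7 also held a candidate of 392 that passed the IDR limit and was not in the list. Sirt6 had 0 peaks and an own-start candidate of 58.6. Among other corepressors 6 of 7 had a peak (85.7%, beside 52.7%), with a median span of 19402 bp, and 5 had a peak nearest to their own start (71.4%, beside 23.2%). Mnt, a bHLH repressor of the Max network, led with 183 for a peak 14925 bp downstream of its nearest start. Its own-start candidate had 142. Gug, the Atrophin gene, followed with 177 for a peak nearest to CG6983 but also within 500 bp of a Gug start. Next was sbb with 143 for a peak nearest to Ote. H (Hairless), the adaptor that links Su(H) to CtBP and Groucho, had 0 peaks and an own-start candidate of 49.1.

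The DNA-binding repressors that recruit CtBP or Groucho had a peak at 9 of 20, or 45.0% beside 52.7% of coding genes, and 8 had a peak nearest to their own start (beside 23.2%). The difference from the other lists was not tested. The strongest were pan with 298, Su(H) with 138 and ttk with 138, all at their own starts and in both replicates' lists. The median own-start signal of this list was 59.8, and that of the other 4 lists was 89.1 to 174, each above the coding median of 38.0. sna itself, named here after its values were seen, had 1 peak, at its own start, with a signal of 99.9 at the 44.5th percentile.

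**Figure D4:**
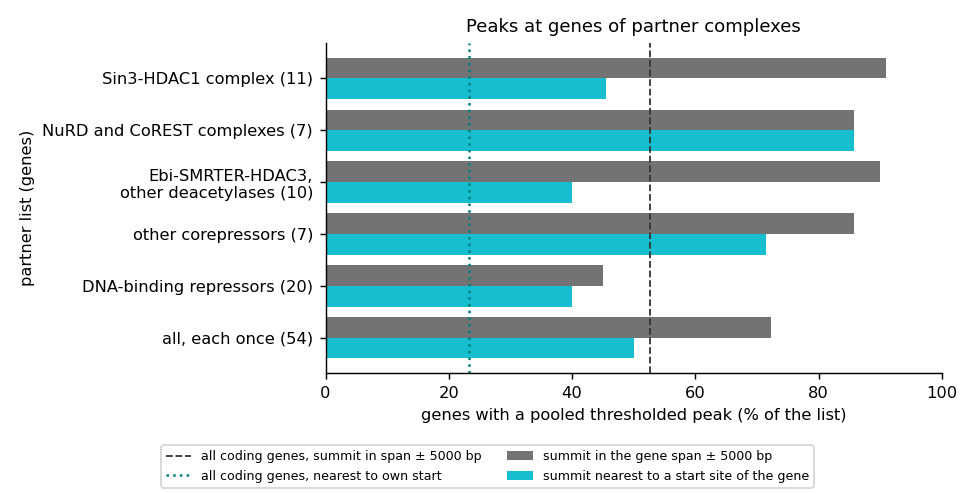
Share of genes in each partner list with a pooled thresholded peak in the gene span extended by 5000 bp (grey bars) and with a peak nearest to an own start site (cyan bars), in percent of the list, with the number of genes in brackets and the shares of all coding genes as lines (52.7% dashed, 23.2% dotted). All grey bars but that of the DNA-binding repressors (45.0%) pass the dashed line, and all cyan bars pass the dotted line.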

How the data were processed

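The 2 replicates were assigned from the biological replicate numbers in the labels. The authors deposited peak lists on dm6, per the labels, each holding the authors' own signal value per peak. The ranked lists also hold the authors' −log10 IDR. Thresholded lists are peaks kept at an IDR of 0.01. Per the deposited readme, pooled lists used both alignments and each replicate's lists used its own. Aligner, peak caller and signal scale: not given in the sources used here. Without read counts the depth cannot be known, and precision is limited by having 2 replicates.

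From these lists, summits were counted from 1 and assigned with Python 3.11.15 and pandas 2.3.3 to Ensembl release 115 gene models of the Release 6 assembly. A percentile is the share of the list or of coding genes with a lower value. Of all pooled peaks 1 lay off the 6 main arms and was left out of gene counts. The assignment was tested on simulated data, where 200 of 200 planted summits were recovered, with 0 counted that lay just outside. The design holds 1 group, so no test was run. The members, partner lists and motifs were chosen with earlier results of these data known. Named genes are the 5 corepressor genes, genes nearest to their peaks, and up to 3 of the strongest per list, with those lacking a peak where a list has at most 4 of them; neighbours and genes at candidates were named after their values were seen. Of 54 partner symbols 8 were older ones matched through the reference gene table. Alternatives were other extensions, lists, overlap rules, windows and reference sets; putting back candidates at the IDR limit was added after seeing the data.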

Additional observations from a re-analysis of the deposited data

How the results depend on the processing

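Of 52 recomputed values 27 stayed alike, within 1.5 times for counts and within a 95% Wilson interval for percentiles, and 25 moved. The interval does not measure the spread between replicates. It is also narrow: for ebi a percentile of 98.6 beside 99.2 was called moved. The tally mixes both rules and is not read as a measure of stability. With no extension of the gene span, 1 corepressor gene, 1 peak and 17 partner genes remained in the counts, and with each peak counted only to its nearest start, 1 gene did. Extending by 10000 bp, or using the replicate-pair list, left 0 genes whose strongest peak was nearest to an own start. In the lists of the single replicates, 2 to 3 genes, 2 to 3 peaks, 0 to 1 genes with the strongest peak at an own start, and 29 to 31 partner genes were counted. Among coding genes, 45.0% had a peak in the replicate 1 list and 36.7% in the replicate 2 list. Peaks above the median signal left 25 partner genes. A count with no share of coding genes beside it is not read as a result about the genes counted. Putting back candidates at the IDR limit gave 13 peaks, and 2 genes, gro and Sin3A, with the strongest nearest to an own start. Percentiles among promoter peaks and in the replicate-pair list were 50.4 and 50.7 for CtBP and 35.9 and 34.7 for HDAC1, and 79.2 among promoter peaks for gro. In single replicates they were 46.6 for CtBP, 74.4 for gro, 98.6 to 98.8 for ebi and 17.2 for HDAC1. All 6 peaks overlapped candidates of both replicates, and CGATA lay within 50 bp of 2 of the 6 summits, beside 39.1% of all pooled peaks. Within 250 bp it lay at 5 of the 6, which was called alike, beside 74.0% of all pooled peaks. The cause of these moves was not tested. No paired analysis was possible because there was 1 group.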
